A study of Mus musculus with 10 samples.

Results

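Dlk1 and 6 other imprinted genes, Meg3, Peg3, Ndn, Snrpn, Magel2 and Grb10, were followed through the nuclei of the paraventricular thalamus (PVT) of the mouse and of the tissue around it. They were chosen by symbol, 7 of the 33502 gene symbols counted, and each had UMIs (unique molecular identifiers, that is, counted RNA molecules) in all 10 libraries. Dlk1 had come forward as a leading gene of one group of PVT neurons in these same libraries, so its levels among PVT neurons and between the groups of neurons are described here and not tested.

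An imprinted gene is expressed mainly from the copy inherited from one parent. A mark set in the germ line, usually DNA methylation at a control region, tells the copies apart, and the genes lie in clusters that such a region governs. Dlk1, Peg3, Ndn, Snrpn and Magel2 are expressed from the paternal copy and Meg3 from the maternal copy, whereas Grb10 is expressed from the paternal copy in neurons and from the maternal copy in most other tissues. Imprinted genes as a class are known for roles in growth, in the hypothalamus and in behaviour. The counts do not tell the parental copies apart, so the values below are the sum over both.

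The tissue was punched from 12-week-old C57BL/6J mice, an inbred wild-type strain that received no genetic change or treatment. The study's methods state that animals were pooled for each sample, but they describe 4 samples, so pooling is not stated for all 10 libraries. The 10 libraries were made with the 10x Genomics 3' v3 chemistry and hold 20503 nuclei. The titles of 6 of them give female, and those of the other 4 give no sex, but the deposited metadata list them as male. The nuclei carry the cluster names of the deposited metadata. Merged into 8 cell types, these were 10410 neurons, 5302 astrocytes, 2462 oligodendrocytes, 993 microglia, 473 oligodendrocyte precursor cells (OPCs), 469 ependymal cells, 215 endothelial cells and 179 fibroblasts.

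The male libraries had 7568267 to 55956635 UMIs and 875 to 7213 nuclei, and the female libraries 5119927 to 12891409 UMIs and 1049 to 1615 nuclei. A neuron had a median of 13580 UMIs in the male and 6843 in the female libraries, and 46 barcodes occurred in more than 1 library. The named cell types were highest for their own markers, with the exception of Nefl among the 7 neuronal markers. RNA of the 7 neuronal markers was found in all types: their summed level was 4293 to 5143 CPM (UMIs scaled so that every sum has the same total) in neurons and 191 to 2528 CPM in the other types, and it was highest in male library 4 in each of the 8 types.

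The 7 genes lie in 4 places of the genome (GENCODE M21 annotation of GRCm38). Dlk1, which encodes a transmembrane protein related to the Notch ligands, is at chr12:109452823-109463336 on the plus strand. Meg3, a long non-coding RNA, follows it on the same strand at chr12:109541001-109571726, with 77.7 kb between them. Ndn (chr7:62346569-62350262, plus strand) and Magel2 (chr7:62377010-62381640, plus strand) both encode proteins of the MAGE family, lie 26.7 kb apart and belong to the domain that is lost in Prader-Willi syndrome, as does Snrpn (chr7:59982495-60140219, minus strand), which encodes a core protein of the spliceosome. Peg3 (chr7:6703892-6730431, minus strand) encodes a zinc finger protein, and Grb10 (chr11:11930508-12038683, minus strand) an adaptor protein that dampens signalling from the insulin receptor. Snrpn overlaps Snurf and Gm38393 on its own strand, where strand cannot separate their reads, and Snurf had 0 UMIs in these libraries. Meg3 likewise overlaps 4 annotated small-RNA genes on its own strand. An opposite-strand RNA overlaps Meg3 (Gm26906) and both Ndn and Magel2 (Gm32061). Reads of these opposite-strand pairs would be hard to assign only if the counting did not use strand. Dlk1, Peg3 and Grb10 overlap no other annotated gene.

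Both neighbouring pairs are shown by the 250 bases before their RefSeq start sites (GRCm38.p6), because the members of each pair share a domain and nevertheless had different levels in the nuclei. Capitals mark CG, the pair of letters at which DNA methylation is set, on the strand of the gene. Dlk1 starts after chr12:109452573-109452822, Meg3 after chr12:109540746-109540995, Ndn after chr7:62348027-62348276 and Magel2 after chr7:62376729-62376978, all on the plus strand. The annotations differ for Ndn: its GENCODE gene, given above, starts before this window, which thus lies inside that gene.
Dlk1: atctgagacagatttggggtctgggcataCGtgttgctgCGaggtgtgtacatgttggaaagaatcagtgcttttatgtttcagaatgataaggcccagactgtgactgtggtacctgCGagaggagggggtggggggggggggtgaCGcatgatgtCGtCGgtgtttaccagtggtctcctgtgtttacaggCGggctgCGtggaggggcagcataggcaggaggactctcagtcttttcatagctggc
Meg3: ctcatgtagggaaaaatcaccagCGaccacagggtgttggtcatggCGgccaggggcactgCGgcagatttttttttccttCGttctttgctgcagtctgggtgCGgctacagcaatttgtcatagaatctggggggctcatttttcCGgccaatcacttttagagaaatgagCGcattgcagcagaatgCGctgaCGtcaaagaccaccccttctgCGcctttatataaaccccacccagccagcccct
Ndn: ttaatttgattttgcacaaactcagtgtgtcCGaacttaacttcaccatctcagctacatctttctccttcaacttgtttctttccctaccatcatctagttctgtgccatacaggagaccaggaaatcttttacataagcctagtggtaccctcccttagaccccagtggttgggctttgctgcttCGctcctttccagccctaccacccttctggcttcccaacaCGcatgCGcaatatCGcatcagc
Magel2: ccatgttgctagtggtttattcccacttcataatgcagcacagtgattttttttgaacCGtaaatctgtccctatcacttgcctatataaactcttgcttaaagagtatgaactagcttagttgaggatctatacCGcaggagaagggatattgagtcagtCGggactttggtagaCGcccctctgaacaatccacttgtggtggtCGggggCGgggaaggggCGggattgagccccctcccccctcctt
The windows held 8 CG pairs for Dlk1, 10 for Meg3, 5 for Ndn and 7 for Magel2, and that of a second RefSeq start site of Meg3, not shown, held 0. Of 32851 RefSeq promoter windows of the same length, 43.0% had as many pairs as Dlk1 or more, 37.8% as many as Meg3, 55.6% as many as Ndn and 46.3% as many as Magel2. One of the Grb10 start sites had 40 pairs, a number reached by 1.31% of windows. The methylation of these windows was not measured.

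In neurons the 7 genes spanned a range from an RNA found in nearly all nuclei to one found in few. Meg3 had 1531273 UMIs in all nuclei, 98.1% of them in neurons, and 99.9% of neurons had at least 1. Peg3 (49122 UMIs), Grb10 (31261) and Snrpn (21247) were found in 88.0%, 83.5% and 69.8% of neurons, respectively. Ndn had 7329 UMIs and was found in 36.2% of neurons.

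Dlk1 and Magel2 were rare. Dlk1 had 1313 UMIs, 91.9% of them in neurons, and was found in 509 neurons, which is 4.89% of them. The 105 neurons with the highest Dlk1 counts held 52.4% of all Dlk1 UMIs of neurons, with up to 19 in a single nucleus. The corresponding share was 4.21% for the abundant Meg3 and 56.0% for Magel2. A gene with few UMIs has a high share by its low count alone, so the share by itself is no measure of concentration. Magel2 had 224 UMIs in all, between 4 and 94 per library, and never more than 2 in a neuron.

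These shares depend on depth, since a median of 11157 UMIs was counted per neuron and of 1756 to 3658 per nucleus of the other types. After each nucleus was thinned to 2000 UMIs, Meg3 was found in 99.95% ± 0.08 (SD, n = 10 libraries) of neurons and in a mean of 34.8% to 69.3% of the nuclei of the other types. Peg3 was found in 43.9% ± 4.30 of neurons, Grb10 in 38.4% ± 3.81, Snrpn in 25.7% ± 3.81, Ndn in 9.64% ± 4.07, Dlk1 in 1.83% ± 0.55 and Magel2 in 0.37% ± 0.17. Thinning left 10213 neurons and removed 197 that were too shallow, and it removed larger shares of the other types, such as 115 of the 215 endothelial nuclei.

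To compare cell types, the UMIs were summed per library and type, and a level is given as CPM after scaling by the trimmed mean of M-values (TMM). In such sums fewer cells that express a gene and less RNA per cell cannot be told apart. Meg3 was by far the most abundant of the genes in neurons, at a lowest, median and highest level of 12689, 15311 and 19293 CPM over the 10 libraries. Grb10 had 267, 317 and 347 CPM in neurons and Snrpn 158, 186 and 242 CPM. For Peg3 these values were 312, 391 and 590 CPM. The neuronal range of Meg3 lay above the highest level in any other type. For how many of all genes this holds was not counted. The neuronal ranges of Grb10, Snrpn and Peg3 reached down into the highest libraries of other types. The ranges of Ndn overlapped throughout, with 23.9, 51.0 and 94.6 CPM in neurons.

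**Figure D1:**
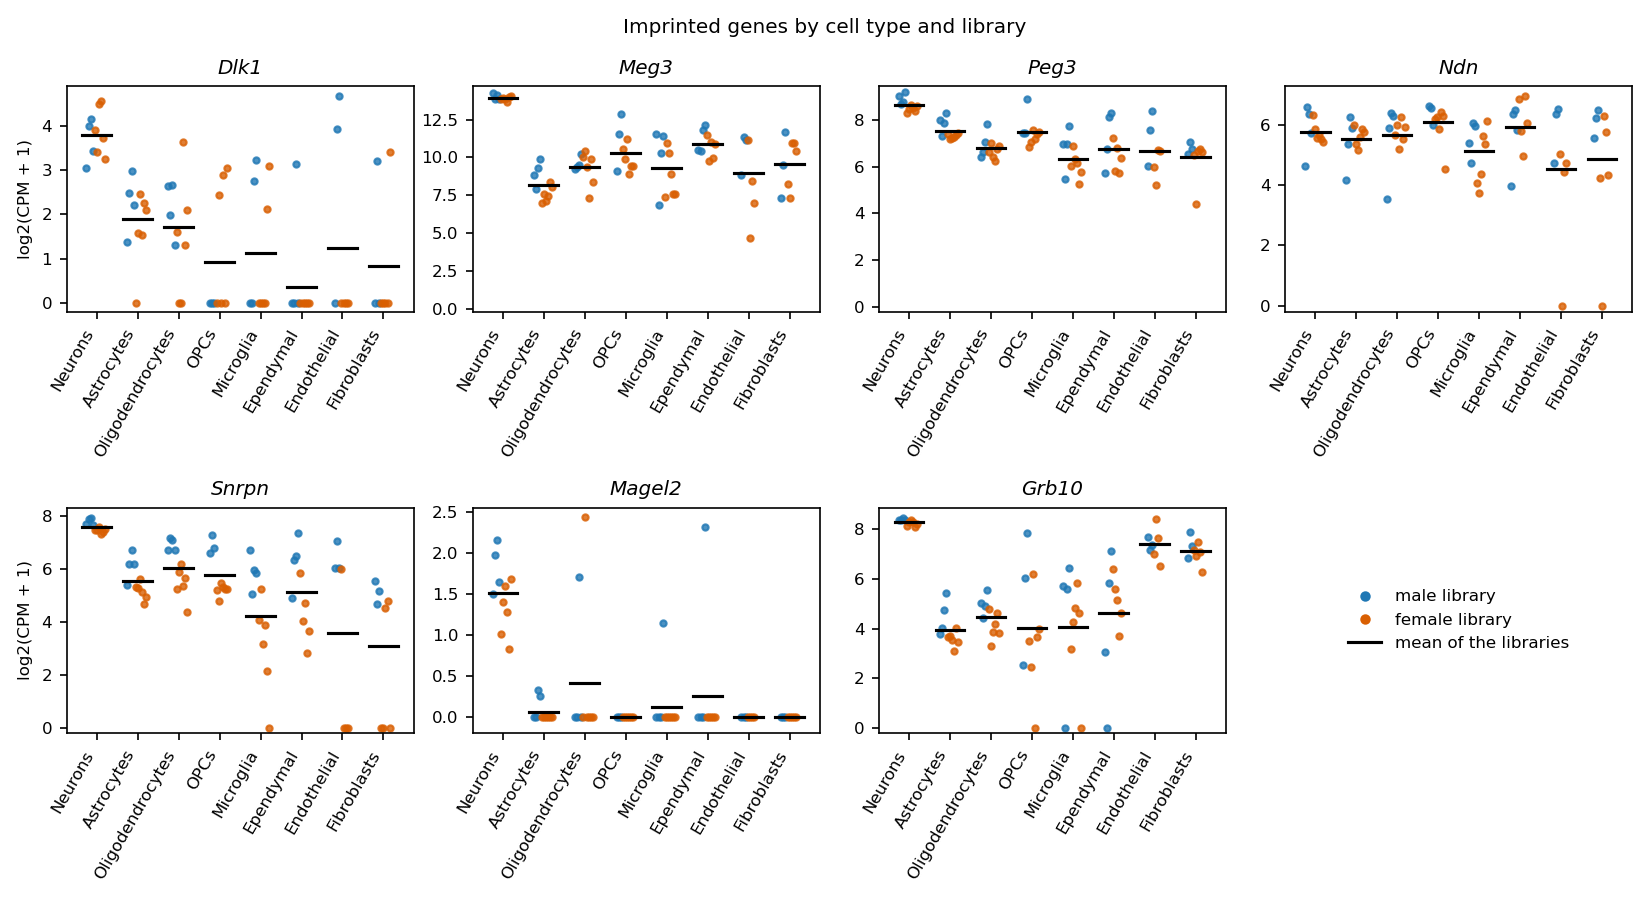
Level of each gene, as log2 of TMM-scaled CPM plus 1, in the summed counts of each cell type. Each point is a library, coloured by its set (male or female), and the bar is the mean of the log2 values. Neurons stand highest for Meg3, Peg3, Snrpn and Grb10, whereas Ndn is spread evenly over the 8 types and Dlk1 and Magel2 are at 0 in many libraries outside neurons.

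Neurons were tested against the mean of the other 7 types with edgeR's quasi-likelihood test and a term for the library, and a gene was called where its Benjamini-Hochberg adjusted p was under 0.05 and its log2 fold change above 0.5 in size. Of the 5 genes with enough counts to be tested, 4 were higher in neurons, a result to be read against the 34.8% of all 9842 tested genes that were called higher and the 23.4% that were called lower. Meg3 rose by 4.21 on the log2 scale (SE 0.26, adjusted p = 1.9e-24), Grb10 by 2.83 (SE 0.15, adjusted p = 1.7e-27), Snrpn by 2.30 (SE 0.15, adjusted p = 8e-24) and Peg3 by 1.73 (SE 0.11, adjusted p = 2.1e-24). All 4 were higher in neurons in 10 of 10 libraries.

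Ndn was the exception, with a log2 difference of 0.14 (SE 0.13, edgeR adjusted p = 0.34) and a higher level in neurons in 7 of 10 libraries. Its mean level was 57.0 CPM ± 21.3 (SD, n = 10) in neurons, 71.1 ± 22.4 in OPCs, 69.4 ± 35.5 in ependymal cells and 55.5 ± 21.7 in oligodendrocytes. The sign of the Ndn difference depended on the scaling: with DESeq2's size factors in place of TMM it was −0.06, while the median of all genes moved from 0.16 to −0.03 and the calls shifted from 59.8% higher to 49.6% higher. The 4 genes above were called higher under each scaling.

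Dlk1 and Magel2 fell below the filter on low counts. Dlk1 had 7.32, 13.1 and 22.9 CPM in neurons (lowest, median and highest) and means between 0.86 CPM in ependymal cells and 5.54 CPM in endothelial cells elsewhere. Magel2 had 216 UMIs in neurons and 8 in the other types together. No Magel2 UMI was found in the 473 OPCs, which allows a share of up to 0.634% of nuclei with a UMI (counting error only), nor in the 215 endothelial cells (up to 1.40%) or the 179 fibroblasts (up to 1.68%). In a fit without the filter, in which 36.8% of all genes were called higher in neurons, Magel2 was called higher at a log2 difference of 3.54 (SE 0.55), in 10 of 10 libraries. The difference for Dlk1 was 2.37 (SE 0.22), likewise in 10 of 10 libraries.

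The order of the types below neurons was largely unresolved. Of 49 pairs of neighbours in the 7 orders, 4 differed by a two-sided exact sign-flip permutation test over libraries with adjustment over the 70 pairs tested in all (adjusted p = 0.034 for each). The 70 include pairs of regional groups of neurons, among which the Dlk1 pairs are not to be read as tests. Neurons stood above ependymal cells for Meg3 and above oligodendrocytes for Snrpn. They stood above OPCs for Peg3, and oligodendrocytes stood above astrocytes for Meg3. The other neighbours did not pass at this number of libraries, including all neighbours for Ndn. Neurons and endothelial cells for Grb10 did not pass either (higher in 6 of 7 libraries, exact permutation p = 0.031, adjusted p = 0.15). With 7 libraries the smallest possible exact permutation p was 0.016, a value adjusted to 0.084, and with 8 it was 0.0078, adjusted to 0.055. For pairs with 8 libraries or fewer the test therefore had little or no room to pass, and no lack of a difference follows.

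Since neuronal RNA occurred in every type, each level was also expressed as a percentage of the neuron level of the same library. Meg3 stood at means of 2.17% in astrocytes to 14.1% in ependymal cells, and the neuronal markers Rbfox3, at 4.47% to 15.4%, and Syt1, at 6.15% to 13.7%, covered much the same range. Snrpn was at 9.43% to 37.7%, and the means of Peg3, at 21.6% to 46.9%, and Ndn, at 75.3% to 123%, stood above those of Rbfox3 and Syt1 in each type. The other 5 neuronal markers were at 11.3% to 28.8% (Snap25), 16.4% to 25.3% (Slc17a6), 29.2% to 41% (Stmn2), 42.1% to 125% (Nrgn) and 66.8% to 119% (Nefl). Grb10 was at 5.18% to 14.2% in 5 types, but at 58.7% ± 26.2 (SD, n = 7) in endothelial cells and 46.1% ± 12.5 (n = 8) in fibroblasts. In endothelial cells and fibroblasts, Rbfox3, Syt1, Snap25, Slc17a6 and Stmn2 were at means of 4.47% to 41.0%, below Grb10, whereas Nrgn (96.2% and 125%) and Nefl (106% and 119%) were above it. The part that neuronal RNA has in the levels of Meg3 and Snrpn outside neurons was not tested.

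**Figure D2:**
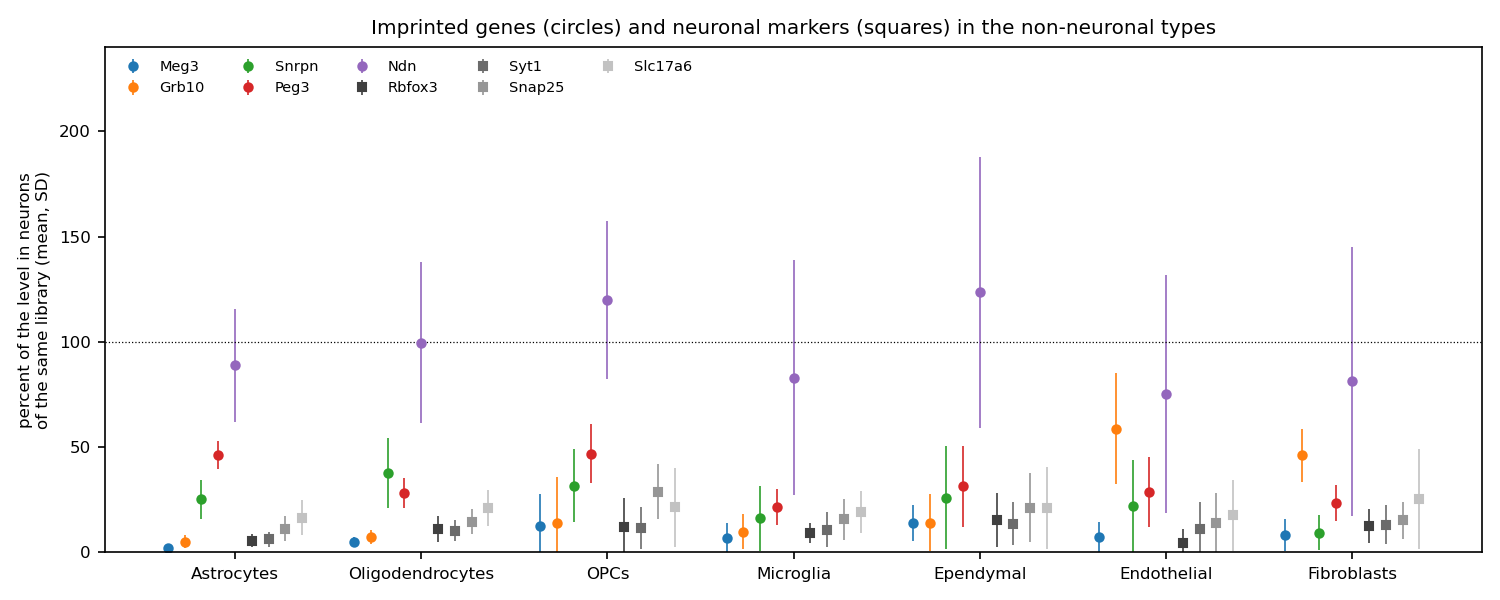
Level in each non-neuronal type as a percentage of the neuron level of the same library, for 5 imprinted genes (circles) and 4 neuronal markers (squares). Points are means and lines are SDs over libraries. Among the genes drawn, which leave out the neuronal markers Stmn2, Nrgn and Nefl, the Grb10 mean lies above the 4 markers in endothelial cells (58.7%) and fibroblasts (46.1%), and Ndn is between 75.3% and 123% in all types.

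Grb10 in endothelial cells and fibroblasts stood between its level in neurons and that in the remaining types. It had 89.3, 164 and 335 CPM in endothelial cells and 77.1, 138 and 238 CPM in fibroblasts (lowest, median and highest library), against means of 16.3 CPM in astrocytes to 45.5 CPM in OPCs. Fibroblasts stood above OPCs, the next in order, in 7 of 8 libraries (exact sign-flip permutation p = 0.016, adjusted p = 0.084). After thinning, 33.1% of endothelial nuclei and 24.9% of fibroblasts had a Grb10 UMI, against 2.39% to 4.69% in glia and ependymal cells and 38.4% of neurons. Male library 4, the one with the most neuronal RNA outside neurons, had the highest Peg3 level in 7 of the 8 types, and its OPC sum had 227 CPM of Grb10 and 7322 CPM of Meg3, each far above the other libraries.

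The second question was how the genes vary between neurons. The 10307 neurons with over 1000 detected genes were split by the marker that most exceeded its expected count: C1ql3, a marker of PVT neurons (3136 nuclei), Adarb2 (1691), Gad2, which encodes an enzyme of GABA synthesis (306), and Nwd2 (918). A further 4256 neurons passed for no marker, and 415 passed for more than 1. The companion markers followed the split in the C1ql3, Gad2 and Nwd2 groups, whereas 1 of the 2 of the Adarb2 group, Rorb, was higher elsewhere, so the groups are named by their splitting gene only. The Gad2 group gave a sum of at least 10 nuclei in 8 libraries and the others in all 10. Levels in these sums were scaled separately and are not comparable with those by cell type.

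Dlk1 had the largest log2 differences between the 4 groups among the 6 genes past the filter, given as a description. In the C1ql3 group it had 10.4, 10.2, 15.1 and 13.4 CPM in male libraries 1 to 4 and 27.7, 8.66, 23.1, 33.1, 11.9 and 6.08 CPM in female libraries 1 to 6. In the Adarb2 group it was at 0 in 4 libraries and reached at most 5.25 CPM. In the Nwd2 group it was likewise at 0 in 4 libraries and reached at most 4.89 CPM. The lowest library of the C1ql3 group (6.08 CPM) thus stood only slightly above the highest of the Adarb2 group (5.25 CPM) and of the Nwd2 group (4.89 CPM). The share of all genes that likewise do not overlap between these groups was not counted. In the Gad2 group the 8 libraries had 0, 66.0, 41.4 and 2.30 CPM (male) and 0, 21.6, 8.37 and 43.0 CPM (female 1, 2, 3 and 5). Its values ran from 0 to the highest of any group, and 84 of its 125 Dlk1 UMIs came from 11 nuclei.

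Against the mean of the other groups, the fitted log2 difference of Dlk1 was 1.76 in the C1ql3 group (SE 0.29, higher in 10 of 10 libraries) and 2.83 in the Gad2 group (SE 0.40, higher in 5 of 8 libraries). It was −2.07 in the Adarb2 group (SE 0.49) and −2.53 in the Nwd2 group (SE 0.58), with a higher level in 1 of 10 libraries in each. These values are given without a test. Dlk1 came forward among PVT neurons of these libraries, which the C1ql3 group holds, and it had 553 and 125 UMIs in the C1ql3 and Gad2 groups against 40 and 12 in the Adarb2 and Nwd2 groups, so that it passed the filter on low counts through the groups in which it was high. The Gad2 group was above the C1ql3 group in 4 of the 8 libraries that had both.

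**Figure D3:**
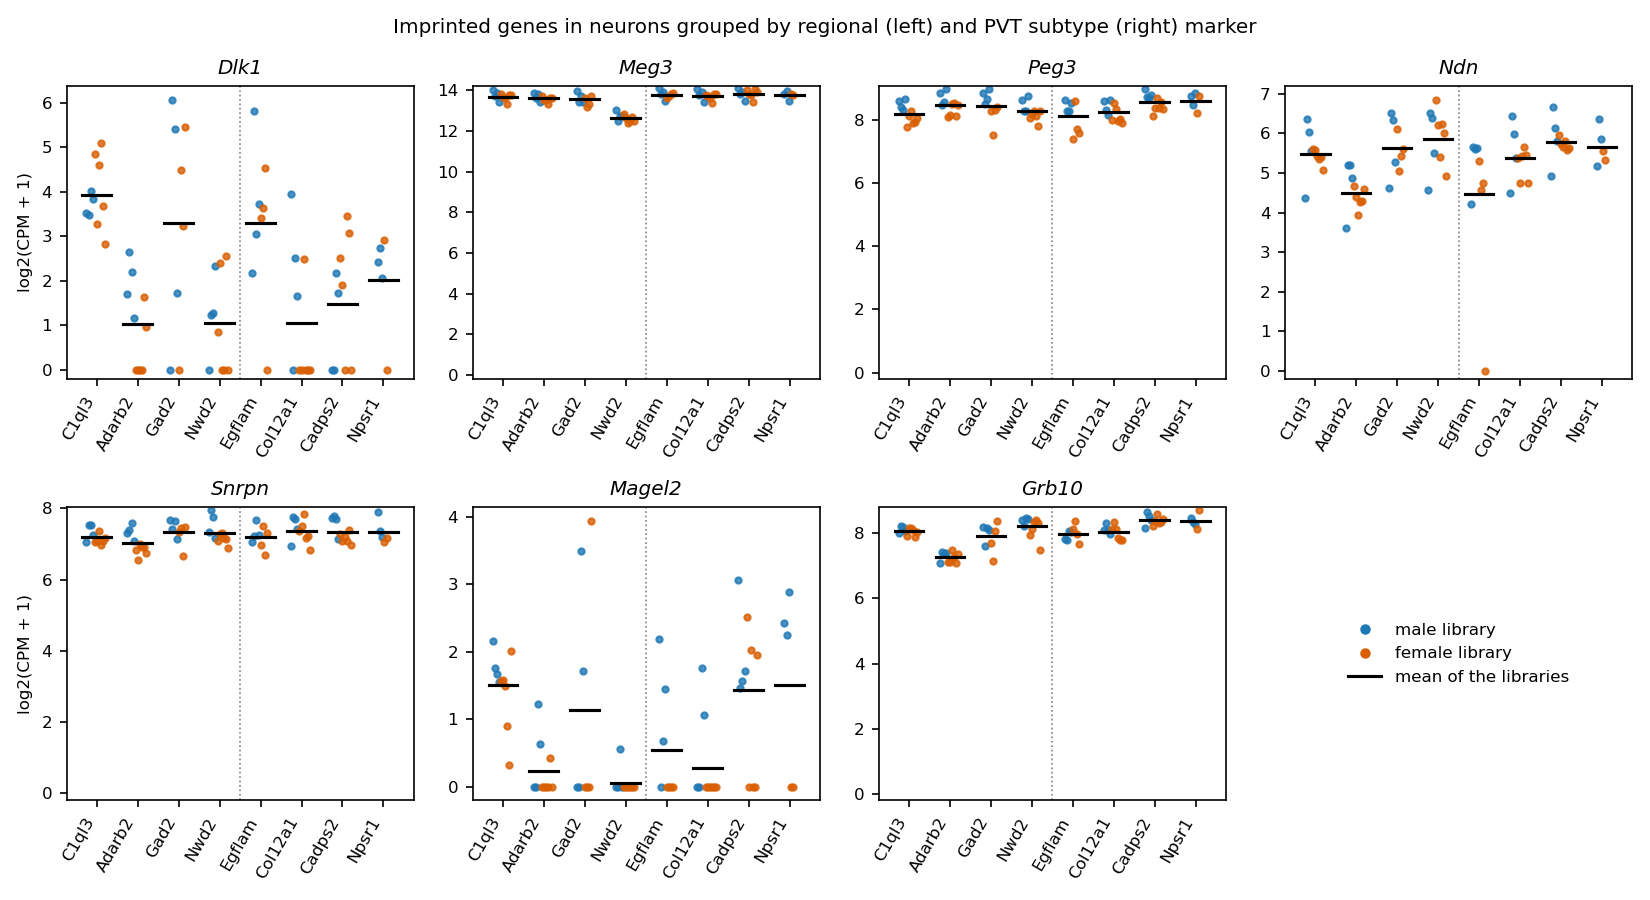
Level of each gene, as log2 of TMM-scaled CPM plus 1, in neurons split by regional marker and in C1ql3-group neurons split by PVT subtype marker, each scaled within its own table. Each point is a library, coloured by its set (male or female), and the bar is the mean of the log2 values. Among the regional groups, Dlk1 is above 0 in every library of the C1ql3 group and low in the Adarb2 and Nwd2 groups. In the Gad2 group it runs from 0 to the highest values of these groups. Meg3 is lowest in the Nwd2 group, and Ndn and Grb10 are lowest in the Adarb2 group.

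Meg3, the neighbour of Dlk1, varied less. Its signs were those of Dlk1 in the C1ql3, Gad2 and Nwd2 groups and the opposite in the Adarb2 group (0.31, SE 0.06), and the 2 patterns were not compared by a test. Its lowest, median and highest levels were 10255, 13517 and 16435 CPM in the C1ql3 group, 10130, 12441 and 14934 CPM in the Adarb2 group and 9273, 11792 and 16226 CPM in the Gad2 group. In the Nwd2 group they were 5330, 6465 and 8221 CPM, below every library of the other 3 groups. The share of all genes that likewise do not overlap was not counted. The Nwd2 group was 0.95 lower on the log2 scale (SE 0.06, edgeR adjusted p = 7.8e-18, lower in 10 of 10 libraries). In the C1ql3 group Meg3 was 0.44 higher (SE 0.06), under the fold required for a call, and it passed only where nuclei passing for exactly 1 marker were kept (0.51).

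Ndn had 11.3, 21.7 and 35.7 CPM in the Adarb2 group and 19.7, 44.0 and 81.4 CPM in the C1ql3 group. It fell by 1.13 in the Adarb2 group (SE 0.10, edgeR adjusted p = 1.8e-12) and was lower there in 10 of 10 libraries, although the ranges of the groups overlapped. In the Nwd2 group, with 22.8, 68.1 and 115 CPM, it rose by 0.69 (SE 0.11, edgeR adjusted p = 5.1e-07, 10 of 10 libraries), a call that was lost with male libraries only (0.43) and with nuclei under 1% mitochondrial transcripts (0.38). Male library 1 had the lowest Ndn level in each of the 4 groups.

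Grb10 was also low in the Adarb2 group, at 134, 159 and 180 CPM against 235, 271 and 298 CPM in the C1ql3 group. These ranges did not overlap, and the share of all genes for which that holds was not counted. Grb10 fell by 0.85 in the Adarb2 group (SE 0.07, edgeR adjusted p = 9.6e-14, lower in 10 of 10 libraries). In the Nwd2 group its difference was 0.4955, just under the required 0.5 (SE 0.07), and it was called in 10 of the alternatives. Peg3 and Snrpn were called in none of the 4 groups, with log2 differences between −0.22 and 0.16. Peg3 was highest in male library 4 in each of the 4 groups.

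Magel2 was below the filter in these sums. It had 76 UMIs in the C1ql3 group (1.99 CPM ± 0.93, n = 10) and 27 in the Gad2 group (3.36 CPM ± 5.67, n = 8, at 0 in 5 libraries), but 11 in the Adarb2 group and 1 in the Nwd2 group. The C1ql3 group stood above the Adarb2 group in 9 of 10 libraries (exact sign-flip permutation test, adjusted p = 0.034).

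Over all tested genes, 11.7% were called higher and 6.57% lower in the C1ql3 group, 13.4% and 15.1% in the Adarb2 group, 9.16% and 3.78% in the Gad2 group, and 20.2% and 21.0% in the Nwd2 group. Leaving Dlk1 aside, of the 5 genes tested here 0 were called in the C1ql3 and Gad2 groups by edgeR, 2 were lower in the Adarb2 group, and 1 was lower and 1 higher in the Nwd2 group. At an adjusted p under 0.05 without the required fold, Meg3 and Grb10 (higher) and Peg3 (lower) passed in the C1ql3 group and Meg3 (higher) in the Gad2 group. Meg3 and Peg3 (higher) and Snrpn (lower) did so in the Adarb2 group and Grb10 (higher) in the Nwd2 group. The number of all genes that met this looser rule is not given here, so these passes have no share to be read against. An unadjusted edgeR p under 0.05, a different rule that more genes can meet, was reached by 5240, 3302, 6719 and 7302 of 11707 genes in the C1ql3, Gad2, Adarb2 and Nwd2 groups.

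**Figure D4:**
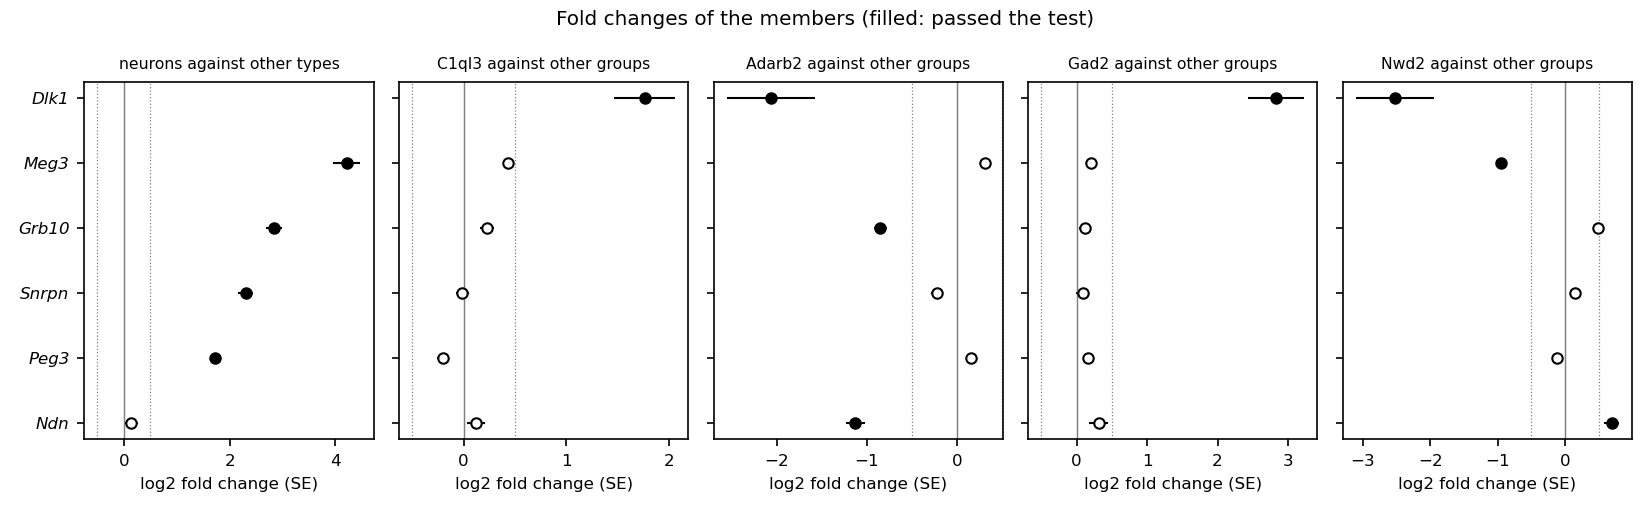
Log2 fold change with its standard error (edgeR) for neurons against the other cell types and for each regional group against the other groups. Filled symbols passed the thresholds and the dotted lines mark a change of 0.5. The fill of the Dlk1 symbols is not to be read as a test result, since Dlk1 was chosen from these same libraries. Dlk1, which lay below the filter on low counts in the first panel, has the largest changes in the other panels.

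Within the C1ql3 group, the nuclei were split again by 4 markers of PVT subtypes, into an Egflam group (230 nuclei), a Col12a1 group (539), a Cadps2 group (539) and an Npsr1 group (164), with 1664 nuclei passing for none. The companion markers Esr1 and Drd2 were not highest in the Egflam group (23.2 against 37.0 CPM and 28.6 against 33.4 CPM elsewhere), and those of the other 3 groups were highest in their own. Dlk1 had 47 UMIs in the Egflam group, with a mean of 15.1 CPM ± 17.4 (SD, n = 8), of which male library 2 alone had 55.0 CPM and 1 library had 0. Means in the other groups were 2.60 CPM in the Col12a1 group (n = 10), 3.07 CPM in the Cadps2 group (n = 10) and 3.96 CPM in the Npsr1 group (n = 5). These values describe the contrast for which Dlk1 was chosen.

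The other genes varied little between the subtype groups. Of 5 tested, only Ndn in the Egflam group was called, with a fall of 0.51 (SE 0.15, edgeR adjusted p = 0.014, lower in 7 of 8 libraries, 1 of which was at 0). It lay at the edge of the required fold and was lost in 11 alternatives, among them those without male library 3 (−0.41), female library 5 or female library 6. All genes considered, 8.23% were called in either direction in the Egflam group, 10.8% in the Col12a1 group, 13.1% in the Cadps2 group and 6.74% in the Npsr1 group. In the Cadps2 group Grb10 was 0.31, Ndn 0.37 and Peg3 0.27 higher, in 10 of 10 libraries each but under the required fold, and without male library 3 Ndn passed at 0.56. Meg3 differed by at most 0.08 in size in any subtype group.

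Most Dlk1 RNA came from neurons that passed for no subtype marker or lay outside the C1ql3 group. Most of the split neurons lay there as well: the C1ql3 group held 30.4% of them, and 53.1% of that group passed for no subtype marker. Within the C1ql3 group, however, the nuclei with no subtype marker held more Dlk1 than their share of nuclei. They had 455 of its 553 Dlk1 UMIs and 29 of its 31 nuclei with 5 or more. Their median depth was 10581 UMIs, against 15225.5 in the Egflam group, which had 47 Dlk1 UMIs. By the deposited clusters, 391 Dlk1 UMIs were in Neurons (2), 389 in Neurons (1) and 299 in Neurons (5), against 9 to 52 in each of the other 5. The level per library was 34.8 CPM ± 20.3 in Neurons (5), here without TMM scaling, and 31.9 ± 35.3 in Neurons (2), where the median was 17.8 and a single library reached 128. It was 10.4 ± 5.62 in Neurons (1) and at most 5.68 in the rest (n = 10 throughout). Magel2 was highest in the same cluster, Neurons (5), at 5.67 ± 4.85, and had no UMI among the 917 nuclei of Neurons (6), which allows a share of up to 0.327%.

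**Figure D5:**
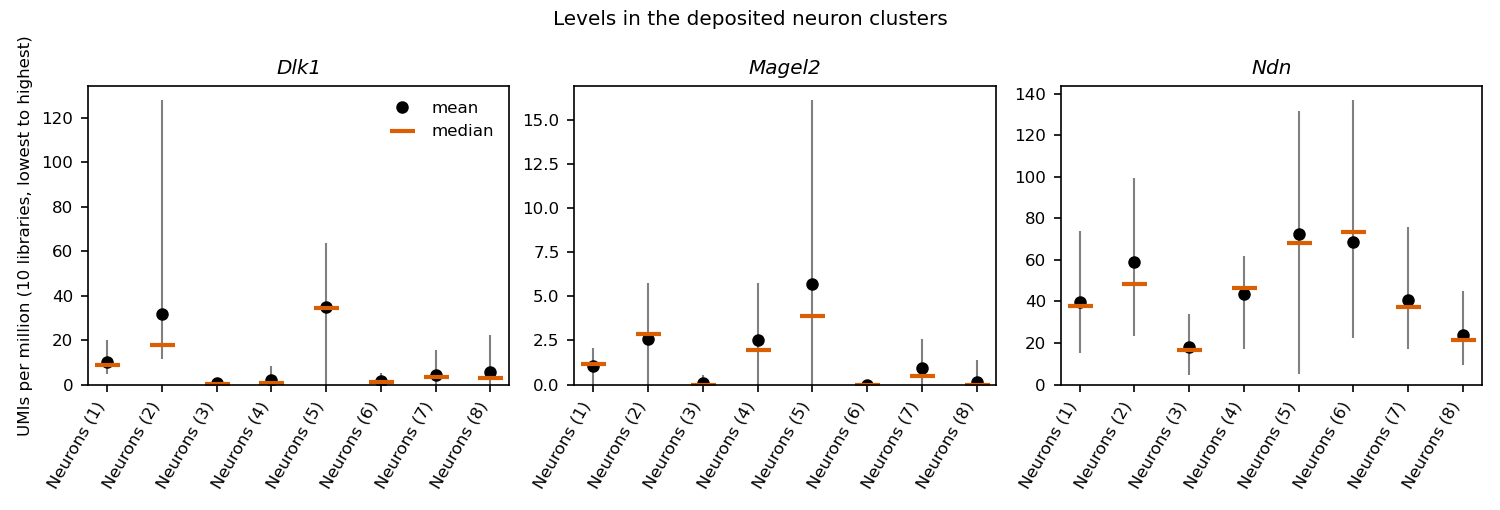
Level of Dlk1, Magel2 and Ndn in the 8 deposited neuronal clusters, in CPM without TMM scaling. The dot is the mean, the orange dash the median and the line runs from the lowest to the highest of 10 libraries. Mean Dlk1 is highest in Neurons (5) and Neurons (2), mean Magel2 is highest in Neurons (5), and Ndn, highest in Neurons (5) (72.5), is lowest in Neurons (3) (18.0).

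The Gad2 group had 38.6% of its nuclei in Neurons (5), 24.8% in Neurons (4) and 14.4% each in Neurons (1) and Neurons (2), and the Nwd2 group lay almost wholly in Neurons (6), with 92.9%. The low Meg3 level recurred in that cluster (6200.3 CPM ± 647 against means of 11107 to 14190.3 in the other neuronal clusters). Since the clusters were made from the same nuclei, this is a description of where the RNA lay. There were 62 neurons with 5 or more Dlk1 UMIs, and they held 35.9% of all Dlk1 UMIs. Of these, 20 were in Neurons (2), 20 in Neurons (5) and 18 in Neurons (1), and 27 came from male library 3.

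In the C1ql3 group, the 111 nuclei with 2 or more Dlk1 UMIs were set beside the 2924 with none, pooled over libraries and without a test, because they were picked by Dlk1. Their median depths were 12904 and 11436.5 UMIs. The first had 34.7 CPM of Esr1 and 38.7 of Drd2, which encode an oestrogen and a dopamine receptor, against 16.9 and 21.3 in the second. They had less of the subtype markers Col12a1 (16.7 against 71.4) and Cadps2 (44.7 against 248) and of Glis3 (30.0 against 243), and a like level of Egflam (22.0 against 26.6). Npsr1 was also lower (21.4 against 38.8), as was the dopamine receptor gene Drd3 (30.0 against 44.1), whereas Kirrel (12.0 against 6.29) and Hcrtr1 (8.68 against 5.74), companions of Npsr1, were higher. Of the other imprinted genes, Ndn stood at 71.4 against 51.8 and Meg3 at 13825 against 13224, while Peg3 (297 against 313), Snrpn (140 against 161) and Grb10 (266 against 270.0) stood slightly lower. The 101 nuclei with 1 Dlk1 UMI were nearer to those with none in Drd2 (24.1), Cadps2 (201), Glis3 (267) and Ndn (52.1). In Col12a1 (27.9) and Drd3 (31.7) these 101 were nearer to the nuclei with 2 or more, and Esr1 (26.4) lay between.

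Between the female and male libraries, none of the 6 genes tested in neurons was called, against 13.6% of all genes. Peg3 was 0.41 lower in the female libraries (SE 0.10, edgeR adjusted p = 0.0085) and Snrpn 0.31 lower (SE 0.09, edgeR adjusted p = 0.042), both under the required fold. Dlk1 (0.29, SE 0.33), Meg3 (−0.09), Ndn (−0.22) and Grb10 (−0.15) had adjusted p values of 0.23 or more. The sexes differ here also in depth and in the genes counted: Rian, the next non-coding RNA after Meg3, had 107849 UMIs in the male and 0 in the female libraries, as Snhg14 had 110860 and 0. Sex and the making of the libraries cannot be told apart.

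The wider set of imprinted genes held 50 further symbols found in the files, taken from domains known in the mouse. Of 29 tested between neurons and the other types, 17 were higher in neurons and 1 was lower, beside 34.8% and 23.4% of all genes. The highest were Mirg (3.84, SE 0.16), a non-coding RNA of the Meg3 domain, Rtl1 (3.56, SE 0.19), a retrotransposon-derived gene beside it, and Usp29 (3.35, SE 0.17), which lies beside Peg3. The gene that was lower was Nnat (−0.81, SE 0.14), which encodes a small membrane protein: it had 129 CPM in neurons against 861 in astrocytes and 1241 in ependymal cells. With the members past the filter included, the Dlk1-Dio3 domain had 4 of 4 tested genes higher in neurons and the Prader-Willi and Angelman domain 4 of 5. The median log2 difference of the 34 genes was 0.96 beside 0.16 over all genes. Dlk1 and Magel2, below the filter, are not among these genes. Rian and Snhg14 are among them and had 0 UMIs in the female libraries, so their calls rest on the male libraries only.

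In the regional groups, of 32 further imprinted genes tested, 5 were higher and 0 lower in the C1ql3 group (11.7% and 6.57% of all genes) and 6 and 1 in the Gad2 group (9.16% and 3.78%). In the Adarb2 group 4 were higher and 11 lower (13.4% and 15.1% of all genes), and in the Nwd2 group 4 and 13 (20.2% and 21.0%). The numbers of higher genes are thus near those shares in the C1ql3 and Adarb2 groups and under it in the Nwd2 group. With the members included, the median log2 difference was 0.21, 0.20, −0.20 and −0.29 in that order, beside 0.01, −0.01, −0.04 and 0.04 over all genes. The Gad2 group was highest in Peg10 (2.55, SE 0.31), Zim1 (2.07, SE 0.24) and Mest (0.95, SE 0.11), which encode a retrotransposon-derived protein, a zinc finger protein and a hydrolase-like protein. Peg10 (−1.97) and Zim1 (−1.80) were among the lowest in the Adarb2 group, where Gpr1 (1.96) was highest. In the Nwd2 group Kcnk9, a potassium channel gene, was highest (1.84, SE 0.18) and Gpr1 lowest (−3.18, SE 0.43).

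Finally, the pattern of each gene over 14 groups, the 7 non-neuronal types and 7 marker groups of neurons, was set beside those of 13026 other genes by Pearson's r of the mean log2 levels. These groups share libraries and differ in depth, so r is a description. Meg3 was most like Mirg (0.99), of the same domain, B830012L14Rik (0.99) and A230006K03Rik (0.98). Snrpn was most like Pclo (0.98), which encodes a presynaptic protein, Dock3 and Gmcl1 (0.97 each), and Peg3 most like Gm48677 (0.98), Faxc (0.97) and Gm14827 (0.97). The likeness was lower for Grb10 (Pcca and Unc13b, 0.92, and Trpc4, 0.89), Ndn (Gm1673 and Vma21, 0.85, and Txndc15, 0.83) and Dlk1 (Zfp566, 0.84, 2610027K06Rik, 0.82, and Gm15787, 0.78). Magel2 was most like Htr1d (0.97), Gm19410 (0.95) and Drd1 (0.94), the first and last of which encode a serotonin and a dopamine receptor. Among the genes themselves, Peg3 and Snrpn were most alike (0.92), followed by Meg3 and Peg3 (0.87), whereas the neighbours Dlk1 and Meg3 had 0.36 and Ndn and Magel2 0.25.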

How the data were processed

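The authors deposited raw UMI counts per gene and nucleus, which were not normalized, with a metadata table that gives the library, the sex, the cluster and the percent of mitochondrial transcripts of each nucleus. The percent values were calculated by the authors, and they were used only for an alternative filter. The genome build named for the deposited files is mm10 and the counting tool, per the submitters' processing notes, is Cell Ranger 6.1.1, whereas the study's methods give another version. All 20503 nuclei were kept, doublets were not called again, and 21 metadata columns were not used.

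Counts were summed per library and cell type (sums of at least 10 nuclei), and per library and marker group for neurons with over 1000 genes. A nucleus joined the group of the marker with the highest ratio of its UMIs to those expected from its depth, given at least 2 UMIs and a ratio over 1. Sums were tested with edgeR 4.0.16 (R 4.3.3; TMM scaling, default filter on low counts, quasi-likelihood F-test), each group against the mean of the others with the library as an additive term, and female against male libraries in neurons. Calls required an adjusted p under 0.05 over all genes tested and a log2 fold change over 0.5 in size. Neighbouring levels were compared with two-sided exact sign-flip permutation tests on log2(CPM + 1). Fits were tested on simulated counts. DESeq2 1.42.0, other scalings, filters and marker rules, and leaving out each library were tried as alternatives.

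The labels call the libraries biological replicates. The edgeR p-values between groups rest on the spread that the library term leaves, pooled over all sums of a library and group. These sums are taken as independent, so such p-values do not measure the spread between libraries, and very small ones go beyond what the number of libraries alone could give. The exact permutation tests and the female against male fit take the libraries as units. Numbers shared between male and female titles did not pair them: deviations from the group means of same-numbered libraries correlated at −0.10, −0.11, −0.09 and 0.15 over 9842 genes.

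The members, the gene lists and the contrasts were chosen with earlier results of these data known. Of the wider imprinted list, the genes named are the 3 highest and 3 lowest among those called in a contrast, or some of them, and for likeness the 3 genes with the highest correlation per member. Intervals and limits cover counting error only.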

Additional observations from a re-analysis of the deposited data

Results flagged for a closer look

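Of 109 levels of a gene in a group of libraries, 17 held a library that stood far from the others by Dixon's criterion. Chance meets it in about 1 of 20 only for normally distributed values, which levels near 0 are not. For Dlk1 in ependymal cells and Magel2 in microglia, ependymal cells and the Nwd2 group, every other library was at 0. The number flagged can therefore not be set against that rate. Male library 4 was highest in 8 of them: Meg3 in OPCs (7322 CPM), Peg3 in oligodendrocytes (225 CPM), OPCs (481 CPM) and microglia (211 CPM), Magel2 in microglia (1.21 CPM) and ependymal cells (4.01 CPM), and Grb10 in astrocytes (42.3 CPM) and OPCs (227 CPM). The same library had the highest summed level of the 7 neuronal markers in each of the 8 types, 2528 CPM in OPCs, and the part of this in those values was not tested. Each of these Magel2 values rests on 1 UMI.

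The others were scattered. Dlk1 stood apart in oligodendrocytes of female library 4 (11.5 CPM), ependymal cells of male library 3 (7.78 CPM), the Egflam group of male library 2 (55.0 CPM) and the Col12a1 group of male library 1 (14.4 CPM). Magel2 did so in oligodendrocytes of female library 2 (4.42 CPM) and, in male library 3, in the Adarb2 group (1.34 CPM), the Nwd2 group (0.48 CPM) and the Col12a1 group (2.37 CPM). Peg3 was low in fibroblasts of female library 2 (19.9 CPM).

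Of 49 differences between the female and male libraries in the size of a contrast, 0 had an adjusted p under 0.05 and 2 an unadjusted p under 0.05 by exact permutation tests. The 49 include the Dlk1 contrasts between the regional groups, which are not to be read as tests. One contrast pointed in opposite directions in every library of the sets. Meg3 in the Npsr1 group against the other subtype groups was lower in the 2 female libraries (mean −0.10) and higher in the 3 male libraries (0.03), a difference of −0.13 on the log2 scale for female minus male. Its exact permutation p of 0.1 is the smallest that the 10 arrangements allow, and the adjusted p was 0.86. For Snrpn the difference between neurons and the other types was 1.94 larger on the log2 scale in the female libraries (exact permutation p = 0.0048, adjusted p = 0.23).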

How the results depend on the processing

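Of 1116 recomputed log2 fold changes of the members, 1090 kept their side of the thresholds, 13 gained and 13 lost a call, and none that was called changed sign. The 1116 include the Dlk1 values between the regional groups, whose calls are not to be read as test results. A further 39 values that were not called in either fit did change sign (range before −0.22 to 0.21 and after −0.11 to 0.09), 7 of them Ndn between neurons and the other types. Snrpn in neurons was 1.45 with male and 2.93 with female libraries only.

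Counts of genes called moved with the filters and with the libraries kept. Without a filter on low counts there were 13067 calls for neurons (5730 with it), 3528 for the C1ql3 group (2138), 1413 for Col12a1 (803), 1738 for Cadps2 (969) and 4107 for female against male libraries (2078). Nuclei under 1% mitochondrial transcripts gave 3140 for neurons. Female libraries alone gave 548 for Gad2 (1514), 320 for Egflam (610) and 121 for Npsr1 (499), for which dropping the library term gave 304 and nuclei passing for exactly 1 marker 203. Between female and male libraries, C1ql3-group neurons gave 1375 and genes with 20 UMIs in each set 567. Leaving out 1 library gave 330 (without male library 3) to 514 calls for Npsr1 and stayed within 1.5 times of the count elsewhere. Blocking on the replicate number gave 1783 calls between female and male libraries, and values of 0.53 for Dlk1, −0.40 for Peg3 and −0.28 for Snrpn, none called. The numbers did not pair the libraries, and 0 of 4 male libraries correlated best with its own number.

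Shares of neurons with a UMI follow depth. At 1000 UMIs and without thinning they were 0.913% and 4.32% for Dlk1, 21.7% and 80.7% for Grb10, 0.158% and 1.65% for Magel2, 5.15% and 32.3% for Ndn, 26.3% and 84.0% for Peg3, and 14.0% and 65.6% for Snrpn, and 99.8% at 1000 UMIs for Meg3. With 12 to 125 Dlk1 UMIs in the Nwd2, Adarb2 and Gad2 groups and 224 Magel2 UMIs in all, depth limits what can be said of these genes per library.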

Other observations

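Among the other imprinted genes, Nnat and Rasgrf1, which encodes an exchange factor for Ras and Rac, had calls of opposite sign in 3 of the 4 PVT subtype groups. Nnat was higher in the Cadps2 group by 1.20 on the log2 scale (SE 0.12) and in the Npsr1 group by 1.07 (SE 0.16), and lower in the Col12a1 group (−1.18, SE 0.14) and the Egflam group (−1.09, SE 0.17). Its mean levels were 204 CPM ± 91.3 (SD, n = 10) in the Cadps2 group, 175 ± 53.3 (n = 5) in the Npsr1 group, 63.1 ± 26.4 (n = 10) in the Col12a1 group and 61.8 ± 28.8 (n = 8) in the Egflam group. Rasgrf1 was higher in the Col12a1 group by 1.31 (SE 0.09) and in the Egflam group by 0.53 (SE 0.11), and lower in the Cadps2 group (−1.36, SE 0.11), with mean levels of 471, 321 and 116 CPM. In the Npsr1 group (197 CPM) it was not called, with a difference of −0.48 (SE 0.14, edgeR adjusted p = 0.019) that lay under the required fold. The other values passed edgeR's test at the thresholds used above. Mest was higher in the Npsr1 group (1.06, SE 0.14) and lower in the Col12a1 group (−0.54, SE 0.11), and Zdbf2 had the same signs (0.60, SE 0.14, and −0.69, SE 0.11). Of 27 further imprinted genes tested in the subtype groups, 1 was higher and 2 were lower in the Egflam group, 1 and 3 in the Col12a1 group, 2 and 1 in the Cadps2 group and 3 and 1 in the Npsr1 group. Over all genes, 8.23%, 10.8%, 13.1% and 6.74% were called in either direction in that order.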
